A study of Mus musculus with 19 samples.

Results

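The antiviral interferon-stimulated genes are the genes that vertebrate cells switch on to block virus replication once they have sensed interferon. A set of 42 such mouse genes was followed here, chosen by name as the rows of the deposited table whose symbol equalled a listed gene. All 42 were found among the 38887 genes of the table, and all 42 passed the expression filter that left 12943 genes for testing. The RNA came from spleen myeloid-derived suppressor cells (MDSC), myeloid cells that can restrain T cell responses, of adult mice (6 to 8 weeks old) and newborn mice (7 days old). The 4 groups were adult M-MDSC (3 libraries), newborn M-MDSC (5 libraries), adult PMN-MDSC (6 libraries) and newborn PMN-MDSC (5 libraries). M-MDSC are the monocyte-like form, sorted as CD11b+ cells with high Ly6C and no Ly6G. PMN-MDSC are the neutrophil-like form, taken as CD11b+ Ly6G+ cells with intermediate Ly6C; the labels name both Ly6G beads and a cell sort for them. No group was treated or carried a stated mutation, and strain and sex of the mice were not stated in the labels. Whether the replicates of a group were separate animals is not stated either, so the p-values describe spread among libraries that may be partly technical.

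Type I interferons bind the receptor formed by Ifnar1 and Ifnar2, whose kinases Jak1 and Tyk2 activate transcription factors, Stat2 among them. These join Irf9 to form the complex ISGF3, which binds a short element, the interferon-stimulated response element (ISRE), in the promoters of its target genes. Type II interferon acts mainly through a different element, called GAS. In the spleen, macrophages and dendritic cells are known sources of interferon, and myeloid cells are among the cells that respond to it.

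Promoter windows of 300 bases (250 before the gene's start to 50 after it) were available from RefSeq on GRCm38.p6 for 31 of the 42 members, and 7 are printed. Among them are Oasl1, with the largest age difference in PMN-MDSC, and Cmpk2, with the smallest in both cell types. The others are Rsad2, the neighbour of Cmpk2, and Isg15, Ifit3, Ifit1 and Ddx58, picked from the members with ISRE letters. Ifi44, with the largest age difference in M-MDSC, is not printed, and its window held no ISRE core as defined below. The windows read 5′ to 3′ along the gene's own strand. Capitals mark the core of the ISRE, here GAAA, any 2 bases and GAAA again, on either strand. Isg15 lay at chr4:156200769-156201068 on the minus strand, Ifit3 at chr19:34583279-34583578 on the plus strand and Ifit1 at chr19:34640639-34640938 on the plus strand. Ddx58 lay at chr4:40239776-40240075 and Rsad2 at chr12:26456403-26456702, both on the minus strand. Cmpk2 lay at chr12:26468965-26469264 and Oasl1 at chr5:114922990-114923289, both on the plus strand.
Isg15: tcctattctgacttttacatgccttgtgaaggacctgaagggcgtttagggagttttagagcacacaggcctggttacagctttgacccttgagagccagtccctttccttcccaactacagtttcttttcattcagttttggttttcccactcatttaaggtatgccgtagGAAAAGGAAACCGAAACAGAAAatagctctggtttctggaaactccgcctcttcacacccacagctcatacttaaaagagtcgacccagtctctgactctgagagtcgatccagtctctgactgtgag
Ifit3: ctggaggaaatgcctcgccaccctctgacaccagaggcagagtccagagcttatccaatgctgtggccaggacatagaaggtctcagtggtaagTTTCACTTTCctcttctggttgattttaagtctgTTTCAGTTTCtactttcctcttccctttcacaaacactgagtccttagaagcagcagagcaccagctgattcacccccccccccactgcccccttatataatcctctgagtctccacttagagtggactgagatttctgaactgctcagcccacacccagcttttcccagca
Ifit1: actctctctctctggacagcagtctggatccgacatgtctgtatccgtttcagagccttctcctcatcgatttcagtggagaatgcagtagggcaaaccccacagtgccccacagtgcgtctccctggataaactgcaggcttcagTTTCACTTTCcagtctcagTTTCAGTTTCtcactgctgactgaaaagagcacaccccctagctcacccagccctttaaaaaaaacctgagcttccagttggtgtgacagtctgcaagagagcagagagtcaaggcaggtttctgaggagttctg
Ddx58: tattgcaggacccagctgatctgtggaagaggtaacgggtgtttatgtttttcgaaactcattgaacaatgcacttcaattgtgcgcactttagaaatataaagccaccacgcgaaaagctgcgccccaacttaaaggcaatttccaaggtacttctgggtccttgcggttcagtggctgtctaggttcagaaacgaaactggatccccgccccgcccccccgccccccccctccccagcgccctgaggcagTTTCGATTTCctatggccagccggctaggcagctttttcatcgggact
Rsad2: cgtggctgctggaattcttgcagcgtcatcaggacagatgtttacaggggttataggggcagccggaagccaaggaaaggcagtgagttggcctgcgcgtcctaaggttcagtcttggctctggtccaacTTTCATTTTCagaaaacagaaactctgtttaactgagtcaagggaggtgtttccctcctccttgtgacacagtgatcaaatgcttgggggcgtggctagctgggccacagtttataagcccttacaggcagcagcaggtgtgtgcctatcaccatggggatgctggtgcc
Cmpk2: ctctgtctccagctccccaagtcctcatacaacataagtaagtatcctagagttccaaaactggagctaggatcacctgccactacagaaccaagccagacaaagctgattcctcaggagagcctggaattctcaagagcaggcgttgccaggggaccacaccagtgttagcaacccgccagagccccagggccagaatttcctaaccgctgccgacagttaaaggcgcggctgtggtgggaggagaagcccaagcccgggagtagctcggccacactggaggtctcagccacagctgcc
Oasl1: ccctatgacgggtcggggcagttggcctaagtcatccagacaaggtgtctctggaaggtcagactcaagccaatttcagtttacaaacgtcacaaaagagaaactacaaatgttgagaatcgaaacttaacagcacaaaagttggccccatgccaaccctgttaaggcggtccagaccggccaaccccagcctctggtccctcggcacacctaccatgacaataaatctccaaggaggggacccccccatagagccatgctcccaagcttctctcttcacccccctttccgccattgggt

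The ISRE core was found on either strand in windows of 15 of the 31 members (48.4%), against 1079 of all 27025 genes of the table with a window (3.99%). Isg15, which encodes the ubiquitin-like modifier ISG15, had 3 overlapping copies. Ifit3 and Ifit1, which encode tetratricopeptide proteins that bind viral RNA, had 2 copies each, and Ddx58, which encodes the RNA sensor RIG-I, had 1 copy just after its start. A longer form, the core followed by CT, was in windows of 7 of 31 members (22.6%) and of 82 of 27025 genes (0.303%). The letters TTCNNNGAA, the core of GAS, were found in windows of 7 of 31 members (22.6%) and of 9.55% of all genes. Neither Cmpk2 nor Oasl1 held the ISRE core letters in its window. These are matches of letters only; a window without them says nothing of elements elsewhere.

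The members lie on many chromosomes, and 19 of them in 8 groups of neighbours no more than 200 kb apart by GENCODE M21 on GRCm38. Ifit2, Ifit3 and Ifit1 lie at chr19:34550694-34650009. Oasl2 and Oasl1 lie at chr5:114896936-114937915, and Oas2, Oas3 and Oas1a at chr5:120730333-120907521. Rsad2 and Cmpk2 lie side by side at chr12:26442746-26479837. The other neighbours are Ifi204 with Ifi203 on chromosome 1, Slfn5 with Slfn8 on chromosome 11, Parp14 with Dtx3l and Parp9 on chromosome 16, and Mx1 with Mx2 on the same chromosome. Every member is annotated as protein-coding except Mx2, a polymorphic pseudogene in that release. Members of the Ifit, Oas, Slfn, Mx and Ifi200 families resemble one another, so their estimated counts may share reads.

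Several facts of the libraries touch every result below. Total counts ran from 827744 to 2965896 in the batch 1 libraries and from 14026193 to 45135933 in the batch 2 libraries, and both batches were present in every group (2 and 1 for adult M-MDSC, 3 and 2 for newborn M-MDSC, 3 and 3 for adult PMN-MDSC, 2 and 3 for newborn PMN-MDSC). Levels are in CPM, each count divided by the TMM-scaled size of its library. Adult PMN-MDSC replicates 1 and 32, 2 and 33, and 3 and 34, and newborn PMN-MDSC replicates 2 and 37, and 3 and 38, resembled each other across batches more than other libraries of their group did. A chi-square of their counts over genes came to 2.54 to 7.47 per degree of freedom for these adult pairs and 3.43 to 4.16 for the newborn pairs, against 9.16 to 23.7 and 7.60 to 12.0 for the other pairs across batches. They may share cells, which the labels do not say, so the counts of members called are also given with the 5 batch 1 partners left out. The neutrophil marker list (12 genes) summed to 10462 to 11153 CPM in adult PMN-MDSC and 101772 to 114218 CPM in newborn PMN-MDSC, and the monocyte list (10 genes) to 4924 to 6377 CPM in adult M-MDSC and 3891 to 4740 CPM in newborn M-MDSC, with no marker of either list at 0 in any group. Ly6g itself, the gene of the PMN-MDSC gate, was at 12.1 to 24.7 CPM in adult PMN-MDSC and 176 to 245 CPM in newborn PMN-MDSC. Among Y-linked genes, Kdm5d had no count in either adult group and counts in all 10 newborn libraries, Eif2s3y and Ddx3y had 45 and 39 counts over 4 and 3 adult PMN-MDSC libraries, and Uty had counts in all 9 adult libraries. Xist, which is expressed from the inactive X, had counts in all 19 libraries. Effects of sex and of age cannot be told apart.

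Adult cells held more RNA of nearly every member than newborn cells of the same type. In adult M-MDSC the 42 members summed to 5482 ± 2221 CPM (SD, n = 3), against 1439 ± 183 CPM in newborn M-MDSC (SD, n = 5). In adult PMN-MDSC they summed to 5560 ± 1710 CPM (SD, n = 6), against 1785 ± 81.3 CPM in newborn PMN-MDSC (SD, n = 5). The lowest adult library, at 3309 CPM, stood above the highest newborn library, at 1901 CPM. In these bulk libraries fewer expressing cells and less RNA per cell cannot be told apart.

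**Figure D1:**
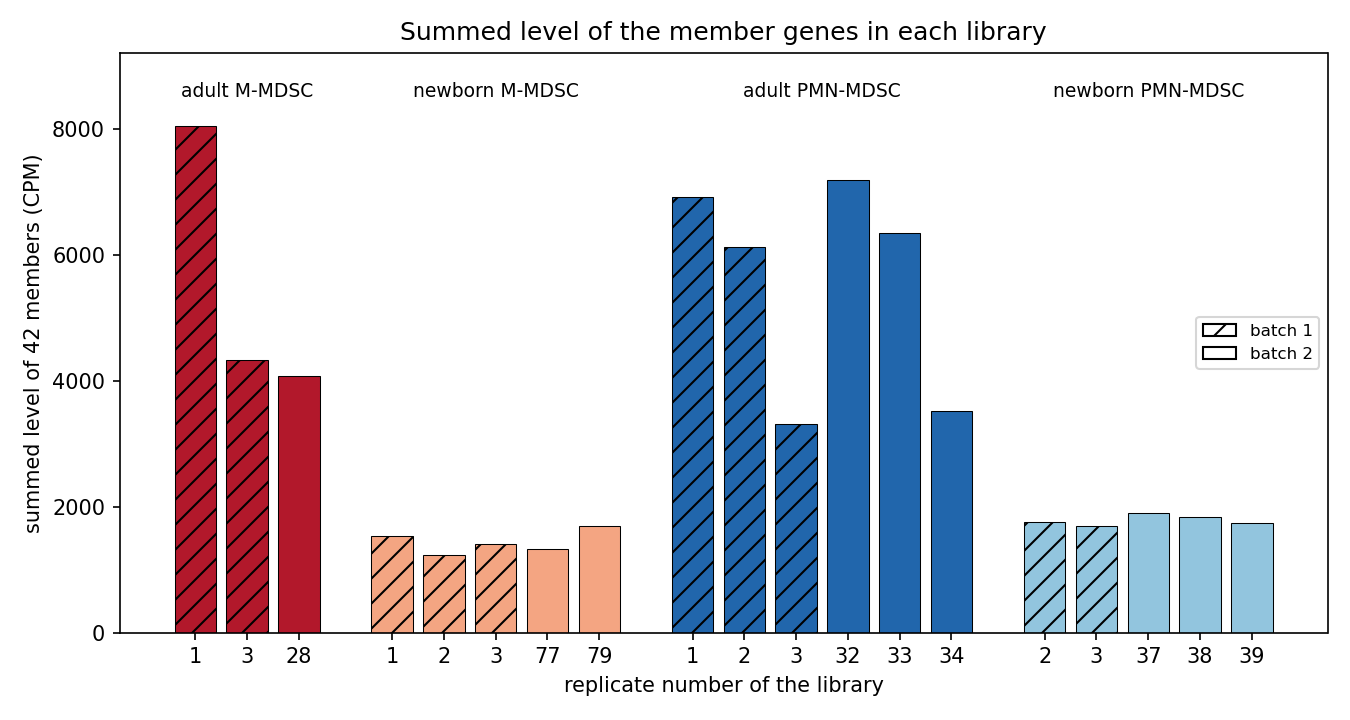
Summed level of the 42 members in each library, in CPM, by replicate number within adult M-MDSC, newborn M-MDSC, adult PMN-MDSC and newborn PMN-MDSC; hatched bars are batch 1 and plain bars batch 2. The 9 adult libraries reach 3309 to 8043 CPM and the 10 newborn libraries 1231 to 1901 CPM.

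In M-MDSC, 41 of the 42 members were higher in adults and none was lower (edgeR quasi-likelihood test, Benjamini-Hochberg adjusted p under 0.05); over all genes tested, 14.3% were higher and 15.9% lower. The members' median log2 fold change, adult over newborn, was 2.08, against -0.01 over all genes tested. The one member not called was Cmpk2. The libraries of the 2 ages did not overlap, with every adult library higher, for 36 members; the same held for 10.4% of all genes. With the 5 PMN-MDSC partners left out of the shared model, 34 members were called (17.7% of all genes in either direction); Ifi204, Herc6, Trim25, Nmi, Eif2ak2, Samd9l and Ifi44 were no longer called. Within batch 1 the count was 40 (27.8% of all genes). Within batch 2, which holds 1 adult M-MDSC library, it was 15 of 42 with a median of 1.52, beside 24% of all genes.

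In PMN-MDSC, 38 of the 42 members were higher in adults and none was lower; over all genes tested, 20.5% were higher and 27.1% lower. The members' median log2 fold change was 2.44, against 0.05 over all genes. The 4 members not called were Cmpk2, Adar, Nmi and Samd9l. For 37 members every adult library lay above every newborn library, as it did for 23% of all genes. With the batch 1 partners left out, 27 members were called (23.5% of all genes in either direction); Ifih1, Dhx58, Ifi204, Ifi35, Oas1a, Oas2, Oas3, Eif2ak2, Isg20, Sp100 and Ifi44 were no longer called, and the median stayed at 2.34. Within batch 1 the count was 31 (31.4% of all genes) and within batch 2 it was 28 (30.8%). The members called in both cell types numbered 38, or 25 with the partners left out and 31 within batch 1, and those without overlap of libraries in both numbered 32. Within batch 2, which holds 1 adult M-MDSC library, fewer members were called in both than in any of these fits. These joint counts were not made over all genes, so they have no background to be set against.

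**Figure D2:**
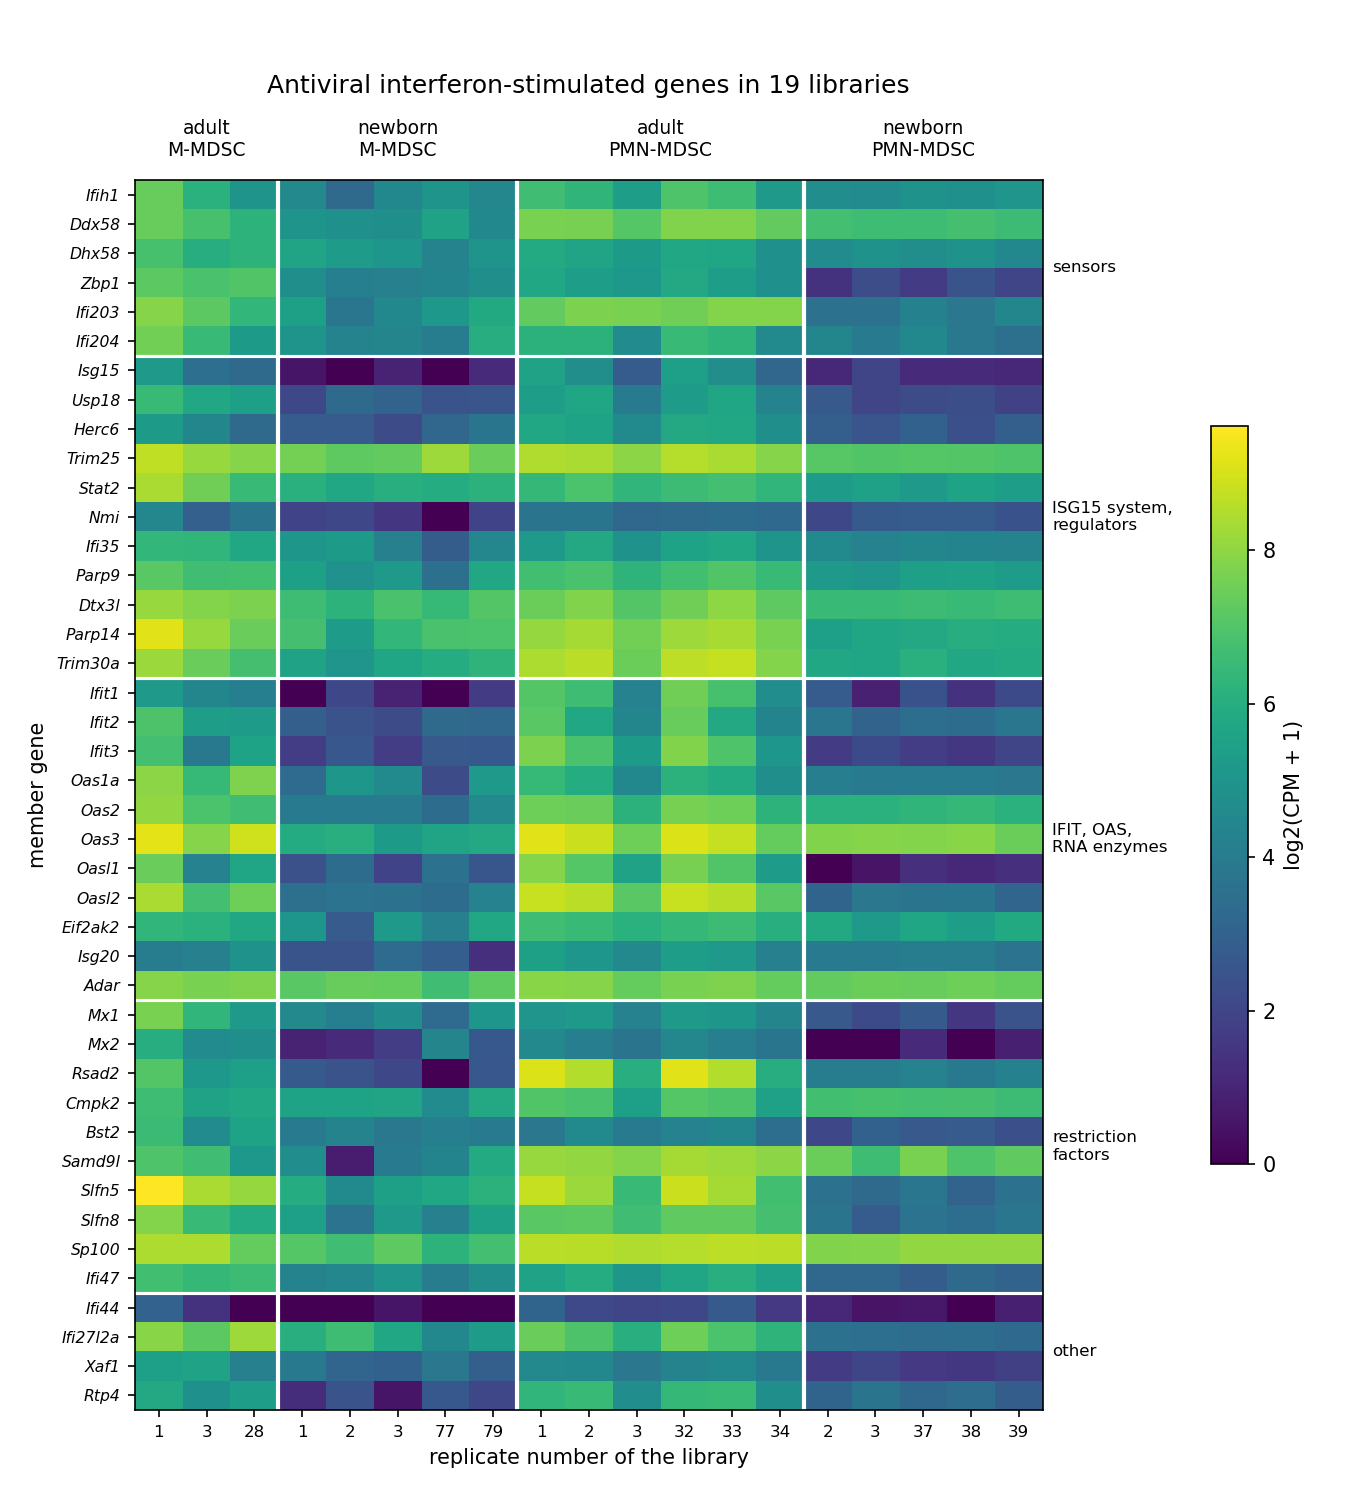
Heat map of the 42 members (rows, by role) in the 19 libraries (columns, by replicate number within adult M-MDSC, newborn M-MDSC, adult PMN-MDSC and newborn PMN-MDSC); colour is log2(CPM + 1). Every adult column lies above every newborn column in 36 rows for M-MDSC and 37 for PMN-MDSC, while rows such as Cmpk2 overlap, with adult M-MDSC replicate 1 the brightest adult M-MDSC library in 38 rows.

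Markers of other cell types differed with age as well, to unlike degrees. Over all genes tested, 14.3% were higher and 15.9% lower in adult M-MDSC, and 20.5% higher and 27.1% lower in adult PMN-MDSC. In PMN-MDSC the calls among plasmacytoid dendritic cell, NK cell and T cell markers lie not far from that share. Only 7 plasmacytoid dendritic cell, 6 NK cell and 5 plasma cell markers passed the filter and were tested, and all markers of the other lists were. All 12 B cell markers were higher in adults in both cell types, summing to 653 to 1654 CPM in adult M-MDSC and 87.8 to 164 CPM in newborn M-MDSC, and to 3089 to 4946 CPM in adult PMN-MDSC and 382 to 601 CPM in newborn PMN-MDSC, with none at 0 in any group. Of the 9 markers of plasmacytoid dendritic cells, which are strong interferon producers, 3 were higher in adult M-MDSC (sum 134 to 222 CPM in adults and 26.9 to 99.8 CPM in newborns) and 2 in adult PMN-MDSC (219 to 318 CPM in adults and 60.7 to 81.0 CPM in newborns); Klk1 was at 0 in adult M-MDSC and Cox6a2 in newborn M-MDSC. Of the 8 markers of conventional dendritic cells, 3 were higher in adults in each cell type, with sums of 194 to 247 CPM in adult M-MDSC, 17.3 to 73.4 CPM in newborn M-MDSC, 259 to 462 CPM in adult PMN-MDSC and 44.1 to 51.0 CPM in newborn PMN-MDSC, and none was at 0. All 12 T cell markers were higher in adult M-MDSC (148 to 472 CPM in adults and 13.1 to 46.8 CPM in newborns) and 3 in adult PMN-MDSC (88.8 to 177 CPM in adults and 53.6 to 83.7 CPM in newborns), with none at 0. Of the 8 NK cell markers, 4 were higher in adult M-MDSC (34.0 to 58.9 CPM in adults and 0 to 7.00 CPM in newborns) and 2 in adult PMN-MDSC (11.0 to 35.3 CPM in adults and 3.03 to 7.66 CPM in newborns); Klra8 was at 0 in both newborn groups. Of the 12 erythroid markers, 11 were lower in adult PMN-MDSC (110 to 446 CPM in adults and 3020 to 5492 CPM in newborns).

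Myeloid markers differed too. Beside them stand the same shares of all genes, 14.3% higher and 15.9% lower in adult M-MDSC, and 20.5% and 27.1% in adult PMN-MDSC. Of the 8 red pulp macrophage markers, 6 were higher in adult M-MDSC (398 to 598 CPM in adults and 246 to 337 CPM in newborns) and 3 in adult PMN-MDSC (1579 to 3328 CPM in adults and 1715 to 2099 CPM in newborns), with none at 0. Of the neutrophil markers, 9 were lower in adult M-MDSC (669 to 1163 CPM in adults and 3187 to 14596 CPM in newborns), and 10 were lower and 1 was higher in adult PMN-MDSC. Of the monocyte markers, 5 were higher in adult M-MDSC, and 5 were higher and 2 lower in adult PMN-MDSC (820 to 1492 CPM in adults and 966 to 1186 CPM in newborns). Of the 7 eosinophil markers, 4 were lower and 1 was higher in adults of each cell type, with Epx, Ear1 and Ear6 at 0 in both adult groups (10.4 to 24.9 CPM in adult M-MDSC, 39.4 to 180 CPM in newborn M-MDSC, 63.7 to 123 CPM in adult PMN-MDSC and 290 to 769 CPM in newborn PMN-MDSC). Of the 6 markers of plasma cells, which are B lineage cells, 4 were higher in adults of each cell type (367 to 467 CPM in adult M-MDSC, 246 to 323 CPM in newborn M-MDSC, 284 to 391 CPM in adult PMN-MDSC and 166 to 204 CPM in newborn PMN-MDSC), with Tnfrsf17 at 0 in both M-MDSC groups.

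Within adult PMN-MDSC the members' sums went with those of conventional dendritic cell markers. They ran opposite to those of B cell and plasmacytoid dendritic cell markers. Replicates 32 and 1 had the highest member sums (7181 and 6907 CPM), the highest sums of conventional dendritic cell markers (462 and 443 CPM) and the lowest of B cell markers (3219 and 3089 CPM). Replicates 34 and 3 had the lowest member sums (3510 and 3309 CPM), the lowest conventional dendritic cell sums (275 and 259 CPM) and the highest B cell sums (4946 and 4851 CPM). The plasmacytoid dendritic cell sums were 293 and 318 CPM in replicates 34 and 3, against 238 and 219 CPM in replicates 32 and 1. Monocyte sums too were lowest in replicates 34 and 3 (826 and 820 CPM), but highest in replicates 33 and 2 (1419 and 1492 CPM). These lists were picked from a larger set, and the order of libraries in the other lists is not described. Replicates 32 and 1, and 34 and 3, are pairs matched across batches that may share cells, so they may not be independent. In adult M-MDSC, replicate 1 had the highest member sum (8043 CPM) and the lowest sums of conventional dendritic cell markers (194 CPM) and B cell markers (653 CPM). Its plasmacytoid dendritic cell sum (163 CPM) lay between those of replicates 28 (134 CPM) and 3 (222 CPM). The part of other cell types in the members' differences was not tested.

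The sensors of viral nucleic acid come first along the pathway. All 6 were higher in adults in both cell types, with medians of 1.99 in M-MDSC and 1.71 in PMN-MDSC on the log2 scale. With the batch 1 partners left out, 5 were called in M-MDSC, all but Ifi204, and 3 in PMN-MDSC, Ddx58, Zbp1 and Ifi203. For this role and those that follow, 14.3% of all genes were higher in adult M-MDSC and 20.5% in adult PMN-MDSC. Without the partners 17.7% and 23.5% of all genes were called in either direction. Ddx58 had 165, 112 and 73.0 CPM in adult M-MDSC replicates 1, 3 and 28. In newborn M-MDSC replicates 1, 2, 3, 77 and 79 it had 30.2, 27.6, 26.9, 45.6 and 21.7 CPM. Every adult M-MDSC library was above every newborn one, with 1.92 ± 0.25 as the log2 fold change and its SE (adjusted p 1.41e-05).

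In PMN-MDSC, Ddx58 ranged from 136 to 221 CPM with a median of 201 CPM in adult PMN-MDSC, against 105, 99.0, 98.0, 108 and 96.4 CPM in newborn PMN-MDSC replicates 2, 3, 37, 38 and 39. The log2 fold change was 0.90 ± 0.21 (adjusted p 0.00146), and the groups did not overlap. Ifih1, which encodes the long-RNA sensor MDA5, was higher in adults by 2.07 ± 0.47 in M-MDSC (adjusted p 0.00272) and 1.53 ± 0.40 in PMN-MDSC (adjusted p 0.00357, and 0.082 without the batch 1 partners). Dhx58, which encodes their regulator LGP2, was higher by 1.32 ± 0.26 in M-MDSC and 0.77 ± 0.23 in PMN-MDSC, with overlapping libraries in PMN-MDSC.

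Ifi203 and Zbp1 had larger fold changes in PMN-MDSC than in M-MDSC, a difference tested below. Ifi203, a member of the PYHIN family of DNA-binding proteins, had 233, 145 and 81.8 CPM in adult M-MDSC and 43.6, 12.8, 21.3, 33.6 and 56.0 CPM in newborn M-MDSC. Its level in adult PMN-MDSC ranged from 158 to 230 CPM with a median of 207 CPM, against 11.5, 11.2, 17.5, 13.2 and 20.2 CPM in newborn PMN-MDSC. No adult library overlapped a newborn library of the same cell type, and the log2 fold changes were 2.23 ± 0.35 in M-MDSC (adjusted p 0.000113) and 3.80 ± 0.33 in PMN-MDSC (adjusted p 2.94e-08). Zbp1, which senses Z-form nucleic acid and can start necroptosis, was higher in adults by 2.61 ± 0.27 in M-MDSC (adjusted p 9.19e-07) and 3.71 ± 0.27 in PMN-MDSC (adjusted p 2.25e-09). Ifi204, the PYHIN relative next to Ifi203, was higher by 1.80 ± 0.55 in M-MDSC (adjusted p 0.0186), where libraries overlapped, and by 1.89 ± 0.47 in PMN-MDSC (adjusted p 0.00296).

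The ISG15 system attaches the small protein ISG15 to others and removes it, and several signalling regulators were described with it. All 11 members of this group were higher in adult M-MDSC (median log2 fold change 1.77) and 10 of 11 in adult PMN-MDSC (median 1.42). Of all genes 14.3% and 20.5% were higher. With the partners left out 8 and 9 members were called, beside 17.7% and 23.5% of all genes in either direction. Isg15 itself had 35.6, 10.4 and 9.16 CPM in adult M-MDSC, against 0.464, 0, 0.927, 0 and 1.25 CPM in newborn M-MDSC. The adult PMN-MDSC libraries ranged from 6.00 to 46.0 CPM with a median of 25.9 CPM, against 1.09, 3.03, 1.27, 1.25 and 1.10 CPM in newborn PMN-MDSC. The adult libraries stood above the newborn ones in both cell types, by 4.72 ± 0.90 in M-MDSC (adjusted p 0.000613) and 4.08 ± 0.76 in PMN-MDSC (adjusted p 0.000214). The newborn levels rest on few reads, 34 counts over 5 M-MDSC libraries and 88 over 5 PMN-MDSC libraries.

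Usp18, the protease that removes ISG15 and dampens the interferon receptor, was higher in adults by 3.39 ± 0.40 in M-MDSC (adjusted p 4.12e-06) and 3.24 ± 0.36 in PMN-MDSC (adjusted p 5.96e-07). Herc6, the mouse ligase that attaches ISG15, was higher by 1.56 ± 0.45 in M-MDSC (adjusted p 0.0127), where libraries overlapped, and by 2.90 ± 0.39 in PMN-MDSC (adjusted p 5.43e-06). Trim25, the E3 ligase that activates RIG-I, had 417, 279 and 234 CPM in adult M-MDSC, against 192, 149, 156, 299 and 170 CPM in newborn M-MDSC. The newborn replicate 77 lay above adult replicates 3 and 28, and the log2 fold change was 0.69 ± 0.23 (adjusted p 0.0301, and 0.0696 without the partners). In adult PMN-MDSC Trim25 ranged from 232 to 377 CPM with a median of 338 CPM, against 137, 126, 134, 132 and 123 CPM in newborn PMN-MDSC, a log2 fold change of 1.27 ± 0.20 (adjusted p 2.83e-05) without overlap.

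Parp14, an ADP-ribosyltransferase, had 579, 284 and 171 CPM in adult M-MDSC, against 111, 37.8, 82.0, 115 and 119 CPM in newborn M-MDSC. Across adult PMN-MDSC it ranged from 190 to 325 CPM with a median of 286 CPM, against 42.7, 50.2, 55.0, 62.8 and 60.5 CPM in newborn PMN-MDSC. The groups did not overlap in either cell type, and the log2 fold changes were 1.91 ± 0.35 (adjusted p 0.000384) and 2.32 ± 0.31 (adjusted p 4.78e-06) in M-MDSC and PMN-MDSC. Its neighbours Dtx3l and Parp9, which encode a ubiquitin ligase and its partner, were higher by 1.27 ± 0.20 and 1.77 ± 0.32 in M-MDSC and by 1.02 ± 0.17 and 1.42 ± 0.28 in PMN-MDSC. Trim30a, a mouse TRIM family protein, was higher by 1.87 ± 0.32 in M-MDSC (adjusted p 0.000226) and 2.55 ± 0.28 in PMN-MDSC (adjusted p 5.37e-07). Stat2, the ISGF3 subunit on the list, was higher by 1.62 ± 0.27 in M-MDSC (adjusted p 0.000175) and 1.19 ± 0.23 in PMN-MDSC (adjusted p 0.000295). Nmi, which encodes an interferon-induced partner of STAT proteins, had a log2 fold change of 2.69 ± 0.76 in M-MDSC (adjusted p 0.012) and of 0.92 ± 0.63 in PMN-MDSC (adjusted p 0.244), and Ifi35, its interaction partner, was higher by 1.67 ± 0.36 and 1.05 ± 0.31.

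The IFIT proteins, the oligoadenylate synthetases and the kinase PKR act on viral RNA and its translation. In adult M-MDSC all 11 of them were higher (median 3.31) and in adult PMN-MDSC 10 of 11 (median 1.87), all but Adar. With the partners left out 10 were called in M-MDSC and 5 in PMN-MDSC, namely Ifit1, Ifit2, Ifit3, Oasl1 and Oasl2. Over all genes, 14.3% and 20.5% were higher in the main fit, and 17.7% and 23.5% were called in either direction without the partners. Ifit3 had 105, 13.7 and 47.1 CPM in adult M-MDSC and 2.32, 5.13, 2.32, 5.49 and 5.31 CPM in newborn M-MDSC. In adult PMN-MDSC it ranged from 31.9 to 223 CPM with a median of 121 CPM, against 2.19, 3.46, 2.40, 1.98 and 3.07 CPM in newborn PMN-MDSC. The lowest adult library was above every newborn library in each cell type, and the log2 fold changes were 3.66 ± 0.64 (adjusted p 0.000273) in M-MDSC and 5.61 ± 0.63 (adjusted p 6.37e-07) in PMN-MDSC.

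Oasl1 had the largest age difference of the set in PMN-MDSC. In mice it encodes a synthetase-like protein reported to restrain translation of Irf7. It had 171, 18.3 and 48.9 CPM in adult M-MDSC, against 4.18, 9.62, 2.78, 11.3 and 4.99 CPM in newborn M-MDSC. It ranged from 39.1 to 233 CPM with a median of 130 CPM in adult PMN-MDSC, against 0, 0.432, 1.53, 1.08 and 1.45 CPM in newborn PMN-MDSC. The log2 fold change was 3.54 ± 0.68 in M-MDSC (adjusted p 0.000646) and 6.76 ± 0.73 in PMN-MDSC (adjusted p 4.08e-07), with no overlap in either. Its neighbour Oasl2 was higher by 4.06 ± 0.43 in M-MDSC (adjusted p 1.20e-06) and 4.95 ± 0.41 in PMN-MDSC (adjusted p 1.25e-08).

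The enzymatically active synthetase Oas3, which makes the messenger that switches on RNase L, had its larger fold change in M-MDSC. It had 598, 232 and 480 CPM in adult M-MDSC and 59.9, 66.1, 37.1, 47.7 and 55.1 CPM in newborn M-MDSC. Its level in adult PMN-MDSC ranged from 164 to 585 CPM with a median of 448 CPM, against 222, 235, 228, 237 and 173 CPM in newborn PMN-MDSC. In M-MDSC the groups were far apart, at 3.04 ± 0.37 (adjusted p 6.72e-06). In PMN-MDSC adult replicates 3 and 34 lay among or below the newborn libraries, and the log2 fold change was 0.84 ± 0.31 (adjusted p 0.0316, and 0.197 without the partners). Oas2 was higher by 3.39 ± 0.38 in M-MDSC (adjusted p 2.24e-06) and 0.98 ± 0.30 in PMN-MDSC (adjusted p 0.0129, and 0.154 without the partners), and Oas1a by 3.14 ± 0.56 (adjusted p 0.000318) and 1.87 ± 0.49 (adjusted p 0.00405).

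Ifit1 and Ifit2, which like Ifit3 encode RNA-binding tetratricopeptide proteins, were higher in adults by 4.34 ± 0.93 and 3.31 ± 0.63 in M-MDSC and by 4.89 ± 0.78 and 2.86 ± 0.54 in PMN-MDSC. Isg20, an exonuclease, was higher by 2.09 ± 0.43 in M-MDSC (adjusted p 0.00111) and 1.11 ± 0.35 in PMN-MDSC (adjusted p 0.0135). Eif2ak2, which encodes PKR, was higher by 1.21 ± 0.39 in M-MDSC (adjusted p 0.0237) and 0.82 ± 0.33 in PMN-MDSC (adjusted p 0.0463), a call lost under 20 of 33 other settings. Adar, which edits adenosines in double-stranded RNA, was among the least changed. It had 235, 208 and 215 CPM in adult M-MDSC and 140, 167, 162, 102 and 149 CPM in newborn M-MDSC, a log2 fold change of 0.61 ± 0.16 (adjusted p 0.0072). The adult PMN-MDSC libraries ranged from 163 to 238 CPM with a median of 211 CPM, against 158, 176, 167, 178 and 161 CPM in newborn PMN-MDSC; these libraries overlapped, at 0.26 ± 0.13 (adjusted p 0.118).

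**Figure D3:**
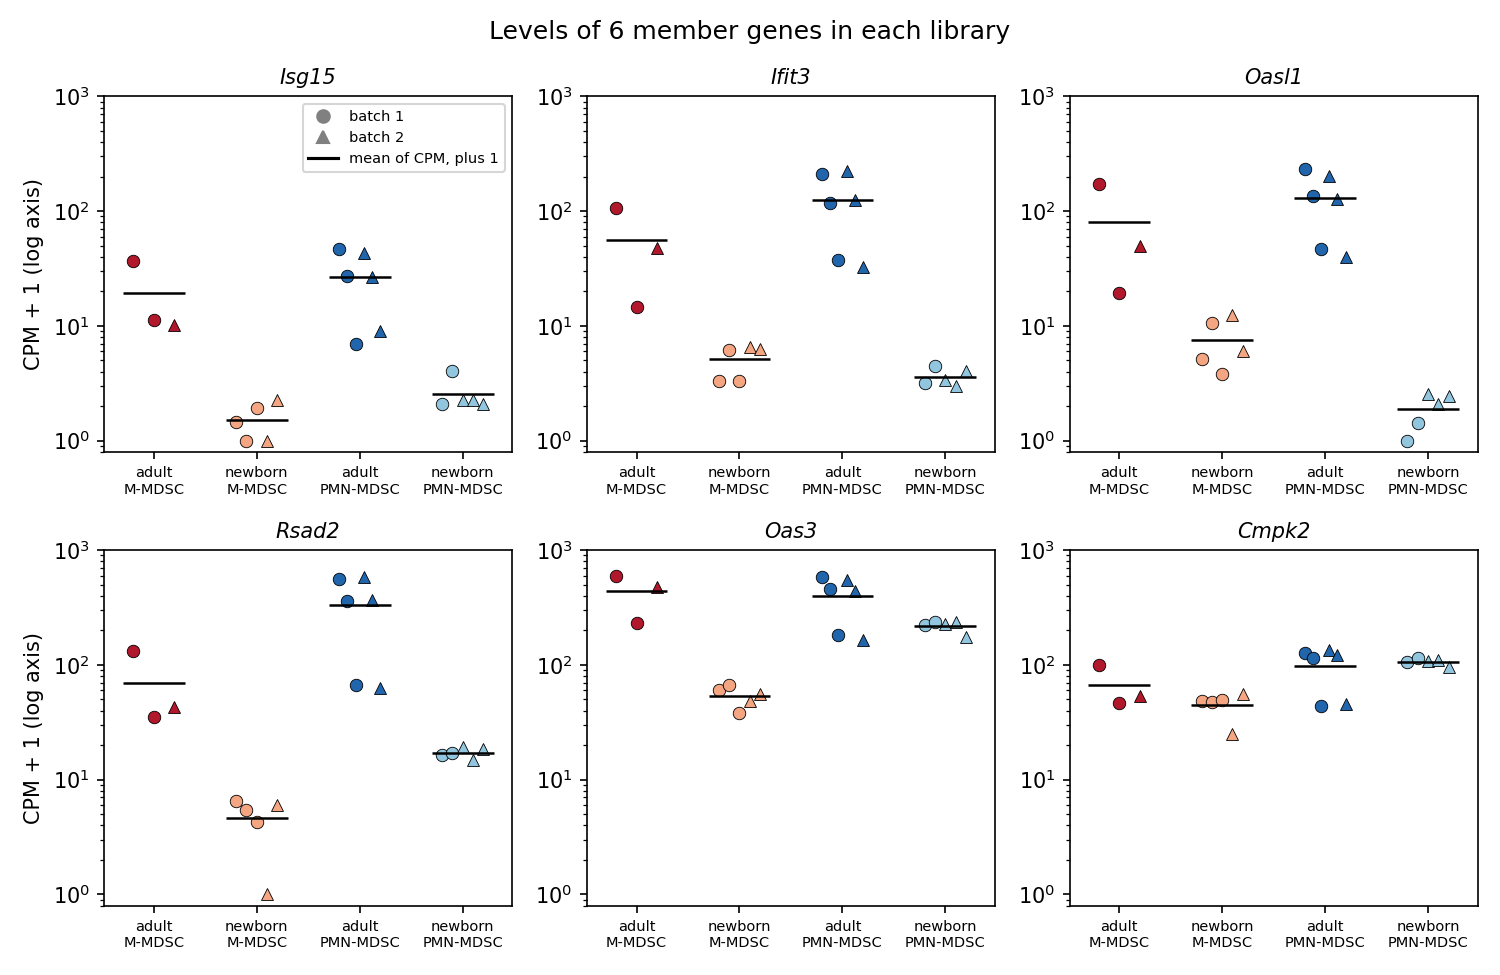
Levels of Isg15, Ifit3, Oasl1, Rsad2, Oas3 and Cmpk2 in each library as CPM + 1 on a log axis, with a panel for each gene and columns for adult M-MDSC, newborn M-MDSC, adult PMN-MDSC and newborn PMN-MDSC; circles are batch 1, triangles batch 2 and lines the group mean plus 1. Oasl1 is at 39.1 CPM or more in every adult PMN-MDSC library and at 1.53 CPM or less in every newborn one, while Cmpk2 overlaps between ages in both cell types.

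The restriction factors block entry, assembly or replication of virus by diverse means. In adult M-MDSC 9 of 10 were higher (median 2.05) and in adult PMN-MDSC 8 of 10 (median 2.73), beside 14.3% and 20.5% of all genes. Without the partners 8 and 7 were called, beside 17.7% and 23.5% of all genes in either direction. Slfn5, a Schlafen family member, had 786, 340 and 273 CPM in adult M-MDSC, against 61.8, 22.4, 43.1, 52.5 and 71.5 CPM in newborn M-MDSC. Across adult PMN-MDSC it ranged from 89.4 to 458 CPM with a median of 303 CPM, against 11.5, 9.08, 12.6, 7.37 and 11.1 CPM in newborn PMN-MDSC. The groups were far apart in both cell types, by 3.20 ± 0.49 in M-MDSC (adjusted p 8.30e-05) and 4.78 ± 0.49 in PMN-MDSC (adjusted p 2.11e-07).

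Sp100, a component of the nuclear bodies organised by PML, had 343, 347 and 161 CPM in adult M-MDSC and 134, 101, 149, 74.4 and 105 CPM in newborn M-MDSC. In adult PMN-MDSC it ranged from 352 to 399 CPM with a median of 388 CPM, against 221, 225, 263, 265 and 268 CPM in newborn PMN-MDSC. Its libraries separated by age in both cell types, by 1.30 ± 0.21 in M-MDSC (adjusted p 0.000133) and 0.59 ± 0.18 in PMN-MDSC (adjusted p 0.0104, and 0.145 without the partners). Sp100 also varied least among adult PMN-MDSC libraries, with a ratio of 1.13 between highest and lowest; the median of this ratio over the 42 members was 2.31.

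Rsad2 and Cmpk2 are neighbours, of which Rsad2 was called in both cell types and Cmpk2 in neither. Rsad2 encodes viperin, an enzyme that makes a chain-terminating nucleotide, and Cmpk2 a mitochondrial nucleotide kinase. Rsad2 had 131, 34.5 and 41.6 CPM in adult M-MDSC, against 5.57, 4.49, 3.24, 0 and 5.07 CPM in newborn M-MDSC. It ranged from 62.3 to 579 CPM with a median of 364 CPM in adult PMN-MDSC, against 15.3, 16.0, 18.3, 13.8 and 17.6 CPM in newborn PMN-MDSC. The log2 fold changes were 4.30 ± 0.88 in M-MDSC (adjusted p 0.00113) and 4.31 ± 0.74 in PMN-MDSC (adjusted p 9.16e-05), without overlap.

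Cmpk2 had 98.7, 45.7 and 52.4 CPM in adult M-MDSC, against 47.4, 46.8, 48.2, 23.9 and 54.3 CPM in newborn M-MDSC. It ranged from 42.6 to 134 CPM with a median of 118 CPM in adult PMN-MDSC, against 105, 113, 106, 109 and 95 CPM in newborn PMN-MDSC. Adult and newborn libraries overlapped in both cell types, and the log2 fold changes were 0.55 ± 0.36 (adjusted p 0.271) in M-MDSC and -0.13 ± 0.30 (adjusted p 0.751) in PMN-MDSC. The sign in PMN-MDSC changed with the scaling, to 0.05 with DESeq2 size factors and 0.11 with upper-quartile scaling, which also moved the median of all genes to 0.22 and 0.29.

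Ifi47, an interferon-induced GTPase, was higher in adults by 2.06 ± 0.24 in M-MDSC (adjusted p 3.22e-06) and 2.70 ± 0.22 in PMN-MDSC (adjusted p 1.07e-08). Slfn8, another Schlafen gene, was higher by 2.03 ± 0.40 in M-MDSC and 3.63 ± 0.38 in PMN-MDSC. Mx1 and Mx2 encode dynamin-like GTPases, of which Mx1 acts in the nucleus of mouse cells; Mx1 was higher by 2.24 ± 0.47 in M-MDSC and 2.75 ± 0.44 in PMN-MDSC, and Mx2 by 3.04 ± 0.84 and 5.19 ± 0.87. Bst2, the tetherin that holds budding virus at the cell surface, was higher by 1.78 ± 0.35 in M-MDSC (adjusted p 0.000858) and 1.69 ± 0.32 in PMN-MDSC (adjusted p 0.000243). Samd9l, a growth and translation inhibitor, had a log2 fold change of 1.92 ± 0.57 in M-MDSC (adjusted p 0.0151), where libraries overlapped, and of 0.89 ± 0.45 in PMN-MDSC (adjusted p 0.114), where they did not.

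The 4 members left are interferon-induced genes of less defined function. All 4 were higher in adults of both cell types, beside 14.3% of all genes in M-MDSC and 20.5% in PMN-MDSC. Without the partners all but Ifi44 were called in each cell type, beside 17.7% and 23.5% of all genes in either direction. Ifi27l2a, which encodes a small membrane protein, had 239, 147 and 294 CPM in adult M-MDSC and 65.0, 98.1, 52.8, 21.7 and 39.0 CPM in newborn M-MDSC. It ranged from 66.6 to 179 CPM with a median of 120 CPM in adult PMN-MDSC, against 10.9, 10.4, 9.97, 10.1 and 8.76 CPM in newborn PMN-MDSC. The groups did not overlap, and the log2 fold changes were 2.11 ± 0.37 (adjusted p 0.000303) and 3.58 ± 0.36 (adjusted p 1.54e-07) for M-MDSC and PMN-MDSC. Rtp4, a receptor transporter protein, had 54.3, 27.4 and 40.1 CPM in adult M-MDSC and 1.39, 4.49, 0.463, 5.25 and 3.10 CPM in newborn M-MDSC. It ranged from 25.2 to 91.7 CPM with a median of 82.5 CPM in adult PMN-MDSC, against 7.66, 12.1, 8.37, 9.92 and 6.21 CPM in newborn PMN-MDSC. No adult library overlapped a newborn one, at 3.68 ± 0.51 (adjusted p 2.91e-05) in M-MDSC and 2.94 ± 0.43 (adjusted p 1.69e-05) in PMN-MDSC. Xaf1, which encodes a partner of the apoptosis inhibitor XIAP, was higher by 1.76 ± 0.34 in M-MDSC and 2.95 ± 0.32 in PMN-MDSC.

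Ifi44 was the least abundant member. It had 7.13, 1.66 and 0 CPM in adult M-MDSC, against 0, 0, 0.463, 0 and 0 CPM in newborn M-MDSC, where a single count was found. The ratio of its 17 adult counts to that 1 newborn count, per scaled library size, was 41.0 with an exact 95% binomial interval of 6.42 to 1712, which covers counting error only. edgeR called it in M-MDSC (adjusted p 0.0216), yet the adult replicate 28, from the deeper batch, held none. Its level in adult PMN-MDSC ranged from 2.05 to 7.67 CPM with a median of 3.26 CPM, against 1.09, 0.432, 0.533, 0 and 0.812 CPM in newborn PMN-MDSC, a log2 fold change of 2.75 ± 1.06 (adjusted p 0.039, and 0.158 without the partners).

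**Figure D4:**
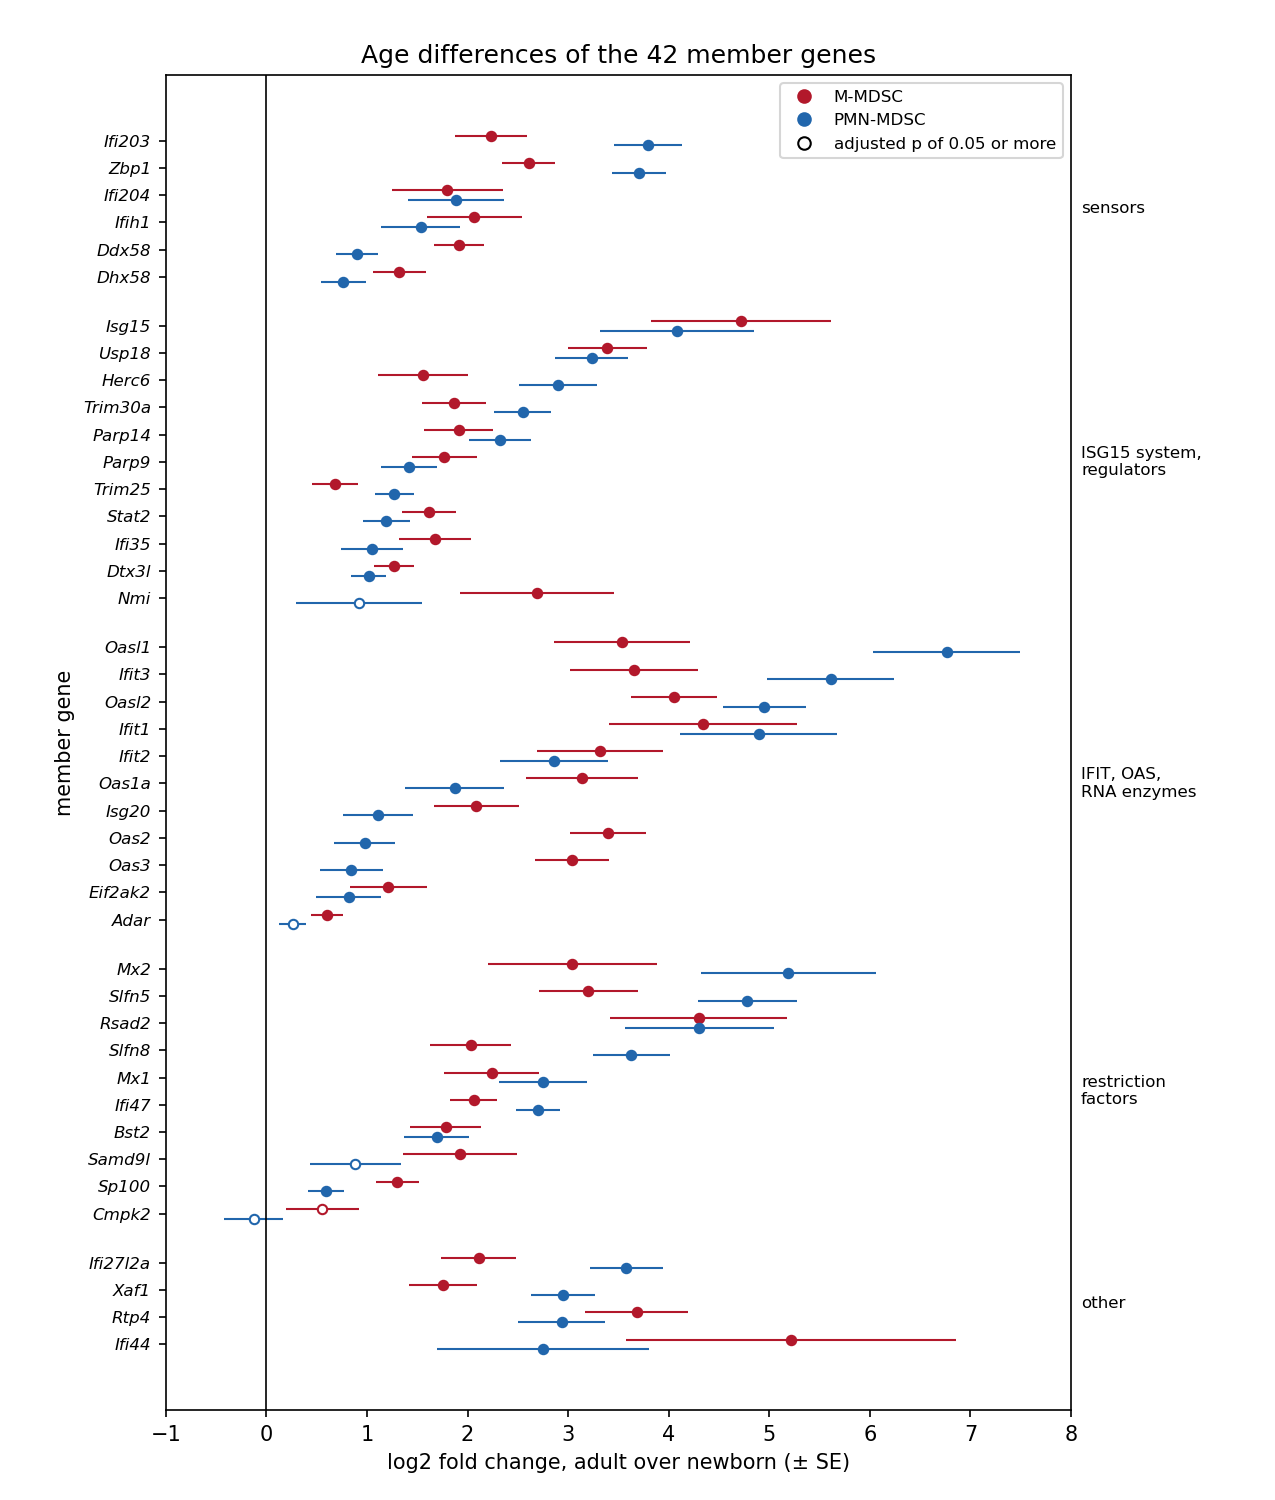
Log2 fold change, adult over newborn, of each of the 42 members in M-MDSC and PMN-MDSC, with bars of 1 SE; open symbols have an adjusted p of 0.05 or more. All points lie right of 0 except Cmpk2 in PMN-MDSC, which is at -0.13, and Oasl1 in PMN-MDSC lies farthest right at 6.76.

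Per kb of exon, so that genes can be compared, Ifi27l2a had the highest mean level of the set in adult M-MDSC (489 CPM per kb), newborn M-MDSC (120 CPM per kb) and adult PMN-MDSC (263 CPM per kb). Behind it in adult M-MDSC stood Oas1a (96.8), Slfn5 (73.7), Oas3 (61.8) and Bst2 (60.1 CPM per kb). In newborn M-MDSC the next were Trim25 (33.6), Adar (17.8), Dtx3l (17.5) and Bst2 (17.3 CPM per kb). In adult PMN-MDSC Trim30a (80.3), Rsad2 (76.7), Ifit3 (71.1) and Oas3 (55.9 CPM per kb) followed. In newborn PMN-MDSC the highest were Sp100 (32.9), Oas3 (31.0), Samd9l (27.9), Cmpk2 (25.4) and Trim25 (22.7 CPM per kb). Differences between neighbours in these orders were not tested.

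The summed level had the larger SDs in the adult groups, as given above, and the libraries kept much the same order from member to member. For 39 of the 42 members, the 2 lowest adult PMN-MDSC libraries were replicates 3 and 34. The ratio of the highest to the lowest adult PMN-MDSC library reached 10.2 for Ifit1 and 9.29 for Rsad2. For 37 members both replicates 3 and 34 were still above every newborn PMN-MDSC library. Replicates 3 and 34 are also a pair matched across batches. In M-MDSC, replicate 1 was the highest adult library for 38 members. These counts were not made over all genes, so an order of libraries particular to the members cannot be told apart from one that other genes share.

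The age difference itself differed between the cell types for 7 members, 3 larger in M-MDSC and 4 larger in PMN-MDSC; over all genes, 11.5% were called in the first direction and 6.61% in the second. The median difference over the members, M-MDSC age effect minus PMN-MDSC age effect, was 0.20 on the log2 scale, against 0.06 over all genes. Its sign turned within batch 2 (-0.68, against -0.57 over all genes, with 1 member called in the first direction and 7 in the second) and without adult M-MDSC replicate 1 (-0.27); within batch 1 it was 0.24, with 1 member called. Oas2 (2.42 ± 0.47, adjusted p 0.00145), Oas3 (2.20 ± 0.48, adjusted p 0.00313) and Ddx58 (1.02 ± 0.32, adjusted p 0.0348) had the larger age effect in M-MDSC. Oasl1 (-3.23 ± 0.95, adjusted p 0.0225), Ifi203 (-1.56 ± 0.47, adjusted p 0.0263), Zbp1 (-1.10 ± 0.37, adjusted p 0.0452) and Slfn8 (-1.60 ± 0.54, adjusted p 0.0487) had the larger one in PMN-MDSC. With the batch 1 partners left out Oas2 and Oas3 were called, at 2.46 and 2.29 (6.08% of all genes in either direction). With DESeq2 size factors 2 members were called in the first direction and 5 in the second, and with upper-quartile scaling 2 and 6. The count ran from 3 without newborn M-MDSC replicate 1 or 79 to 8 without adult M-MDSC replicate 1, and it was 4 without any one of adult M-MDSC replicate 3, adult PMN-MDSC replicates 1 or 2 and newborn PMN-MDSC replicates 2, 3, 37 or 38. Of 32 other settings, the call was lost in 1 for Oas2 and Oas3, 7 for Oasl1, 12 for Ddx58, 13 for Ifi203, 20 for Slfn8 and 22 for Zbp1.

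Between the cell types, adults differed less than newborns in counts of calls, a contrast that was not itself tested. In adults 7 members were higher in M-MDSC and 3 lower than in PMN-MDSC, with 16.7% and 12.5% of all genes called in the same directions. Zbp1 (1.66 ± 0.25, adjusted p 6.96e-05), Bst2 (1.67 ± 0.34, adjusted p 0.00112), Mx1 (1.75 ± 0.46, adjusted p 0.00743), Oas1a (1.76 ± 0.51, adjusted p 0.0148), Stat2, Ifi47 and Dhx58 were the higher ones. Ddx58, Rsad2 and Samd9l were lower in adult M-MDSC, by log2 fold changes of -0.71, -2.37 and -1.56. With the partners left out 3 were called, Zbp1, Bst2 and, newly, Sp100 (15.1% of all genes). Without adult M-MDSC replicate 28 or adult PMN-MDSC replicate 2 the count was 6. The sign of the members' median turned within batch 2, which holds 1 adult M-MDSC library. It was -0.68 there (-1.04 over all genes), against 0.11 (-0.13 over all genes) in the fit to all libraries. In both fits the members' median lay above that of all genes. Within batch 1, 4 were higher and none lower (11.4% of all genes in either direction), with a median of 0.25.

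In newborns 14 members were higher in M-MDSC and 9 lower, with 18.7% and 23.4% of all genes called in those directions. The largest differences were Mx2 (3.59 ± 0.84, adjusted p 0.00199) and Zbp1 (2.76 ± 0.27, adjusted p 1.83e-07) on the M-MDSC side. On the PMN-MDSC side they were Samd9l (-2.59 ± 0.50, adjusted p 0.00036), Rsad2 (-2.36 ± 0.82, adjusted p 0.0271) and Oas2 (-2.29 ± 0.34, adjusted p 2.94e-05). Oasl1 was higher in newborn M-MDSC than in newborn PMN-MDSC by 2.52 ± 0.70 (adjusted p 0.00695), with -0.71 ± 0.64 (adjusted p 0.427) between adult M-MDSC and adult PMN-MDSC. Oas3 was lower in newborn M-MDSC by a log2 fold change of -2.06 ± 0.34 (adjusted p 8.20e-05), with 0.14 ± 0.35 (adjusted p 0.796) in adults. These comparisons share libraries with the age comparisons. With the partners left out 15 members were called (27% of all genes).

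The rest of the interferon pathway was followed with a list of 56 genes, of which 38 passed the expression filter. None of the 18 interferon genes on it passed. Of the 38 tested, 14 (36.8%) were called in M-MDSC and 22 (57.9%) in PMN-MDSC in either direction, beside 30.2% and 47.7% of all genes, so these counts lie not far from the background. With the batch 1 partners left out, 10 of them were called in M-MDSC and 12 in PMN-MDSC. Ifnb1, which encodes interferon beta, had 3 counts in adult M-MDSC, all in replicate 1, no count in newborn M-MDSC, 44 counts in adult PMN-MDSC, in replicates 1, 2, 32 and 33, and no count in newborn PMN-MDSC. The adult libraries with Ifnb1 counts were thus the 5 with the highest member sums (6114 to 8043 CPM), and the 4 adult libraries without them had sums of 3309 to 4328 CPM. In adult PMN-MDSC, replicates 1 and 32, and 2 and 33, with such counts, and 3 and 34, without them, are pairs matched across batches. The libraries of a pair may share cells, so they may not be independent. A link between Ifnb1 and the members was not tested. Of the 18 interferon genes only Ifnb1 is described by library, which the naming rule did not ask for. Ifnz had 3 counts in adult PMN-MDSC and 5 in newborn PMN-MDSC, and the rest are not described. A count of 0 in a batch 1 library allows up to 0.990 to 3.29 CPM, and in a batch 2 library up to 0.0601 to 0.197 CPM.

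Of the pathway's receptors, the lambda interferon receptor had the largest age difference. Of the 6 chains tested, none was higher and 1 was lower in adult M-MDSC, and 1 was higher and 2 were lower in adult PMN-MDSC. Beside these stand 30.2% and 47.7% of all genes, called in either direction in M-MDSC and PMN-MDSC. Ifnlr1, the ligand-binding chain for interferon lambda, averaged 0.404 ± 0.60 CPM in adult M-MDSC and 8.87 ± 2.1 CPM in newborn M-MDSC, and 20.3 ± 3.0 CPM in adult PMN-MDSC and 204 ± 15 CPM in newborn PMN-MDSC (SD, n = 3, 5, 6 and 5). It was lower in adults by log2 fold changes of -5.46 ± 0.48 (adjusted p 1.71e-07) and -3.32 ± 0.21 (adjusted p 3.53e-10). Ifnar1 was at 0.12 ± 0.18 (adjusted p 0.663) in M-MDSC and 0.46 ± 0.15 (adjusted p 0.0162, a call lost under 10 of 33 other settings) in PMN-MDSC, and Ifnar2 at -0.36 ± 0.22 (adjusted p 0.24) and -0.62 ± 0.18 (adjusted p 0.00835). The PMN-MDSC call of Ifnar2 was lost with DESeq2 size factors (-0.45) and upper-quartile scaling (-0.39). It was also lost within batch 1 (-0.67), there also with the replicate number as a block (-0.78).

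Of the 10 kinases and transcription factors tested, 4 were higher and none was lower in adult M-MDSC, and 6 were higher and 1 was lower in adult PMN-MDSC. Over all genes, 30.2% were called in either direction in M-MDSC and 47.7% in PMN-MDSC. Irf7, the factor that amplifies interferon production, averaged 302 ± 73 CPM in adult M-MDSC and 61.7 ± 29 CPM in newborn M-MDSC, and 150 ± 58 CPM in adult PMN-MDSC and 55.9 ± 8.3 CPM in newborn PMN-MDSC. It was higher in adults by 2.32 ± 0.37 (adjusted p 0.000119) in M-MDSC and 1.39 ± 0.32 (adjusted p 0.00151) in PMN-MDSC. Irf1, a factor induced by interferon gamma, was higher by 1.72 ± 0.27 and 1.32 ± 0.23, and the ISGF3 subunit Irf9 by 0.79 ± 0.24 and 0.88 ± 0.20. Within batch 2 the PMN-MDSC calls of Irf7 and Irf9 were lost, at 1.38 and 0.79. The M-MDSC call of Irf9 was lost under 7 of 33 other settings, among them within either batch, without adult M-MDSC replicate 1 (0.78, adjusted p 0.0535) and without replicate 28 (0.73, adjusted p 0.0539). The PMN-MDSC calls of Jak2, which was higher, and Tyk2, which was lower, were lost under 11 and 15 other settings; with DESeq2 size factors Tyk2 was at -0.21 (adjusted p 0.224). Jak1, a kinase bound to the receptor chains, was higher in adult M-MDSC by 0.67 ± 0.17 (adjusted p 0.00717), with 0.27 ± 0.15 (adjusted p 0.134) in PMN-MDSC; the M-MDSC call was lost without adult M-MDSC replicate 3 (0.50, adjusted p 0.0744), without the batch 1 partners (0.69, adjusted p 0.0506) and with the M-MDSC libraries fitted alone (0.69, adjusted p 0.116), and the sign turned within batch 2. Irf8 and Irf5, factors of the monocyte and dendritic cell lines, were higher in adult PMN-MDSC by 2.36 ± 0.16 and 2.12 ± 0.15, with -0.28 ± 0.18 and 0.36 ± 0.16 in M-MDSC; the differences of -2.64 ± 0.25 and -1.76 ± 0.22 were called under each of 32 other settings.

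Of the 13 upstream sensors and adaptors, 4 were higher and 1 was lower in adult M-MDSC, and 6 were higher and 2 were lower in adult PMN-MDSC. The shares of all genes called in either direction were 30.2% in M-MDSC and 47.7% in PMN-MDSC. Tlr7, the endosomal sensor of single-stranded RNA, was higher in adults by 2.82 ± 0.52 in M-MDSC (adjusted p 0.000501) and 1.34 ± 0.44 in PMN-MDSC (adjusted p 0.0184, a call lost under 5 of 33 other settings), and Tlr9, the sensor of unmethylated DNA, by 1.32 ± 0.29 (adjusted p 0.00204) and 2.86 ± 0.27 (adjusted p 8.53e-08). Mb21d1, which encodes the DNA sensor cGAS, was lower in adults, by log2 fold changes of -1.02 ± 0.38 (adjusted p 0.0497) in M-MDSC and -1.25 ± 0.31 (adjusted p 0.00268) in PMN-MDSC; the M-MDSC call was lost under 30 of 33 other settings. Of the 7 negative regulators, Socs3, a feedback inhibitor of cytokine receptors, was higher in adults, by 3.67 ± 0.27 in M-MDSC (adjusted p 2.70e-08) and 2.37 ± 0.23 in PMN-MDSC (adjusted p 1.16e-07), and Ptpn11, which encodes the phosphatase SHP2, was lower, by log2 fold changes of -0.45 ± 0.13 (adjusted p 0.0131, lost under 10 other settings) and -1.33 ± 0.11 (adjusted p 8.20e-09). In PMN-MDSC Ptpn6 was lower too, at -0.63 ± 0.23 (adjusted p 0.0317, lost under 11 other settings). The remaining 4 were called in neither cell type. Of the 7, then, 1 was higher and 1 lower in adult M-MDSC, and 1 was higher and 2 lower in adult PMN-MDSC. Beside these counts stand 30.2% and 47.7% of all genes in either direction, so the negative regulators do not stand out.

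The age effects of the 2 enzymes that conjugate ISG15 differed between the cell types. Uba7, the activating enzyme, was higher in adult M-MDSC by 1.43 ± 0.22 (adjusted p 8.60e-05), with 0.25 ± 0.19 (adjusted p 0.292) in PMN-MDSC. Ube2l6, the conjugating enzyme, was higher in adult M-MDSC by 1.69 ± 0.35 (adjusted p 0.00134) and lower in adult PMN-MDSC by a log2 fold change of -0.88 ± 0.30 (adjusted p 0.0207, lost under 7 other settings). The differences between the cell types were 1.18 ± 0.29 (adjusted p 0.0075) for Uba7 and 2.57 ± 0.46 (adjusted p 0.000752) for Ube2l6. Herc6 and Usp18, the ligase and the protease of the same system, were higher in adults of both cell types, as given above.

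**Figure D5:**
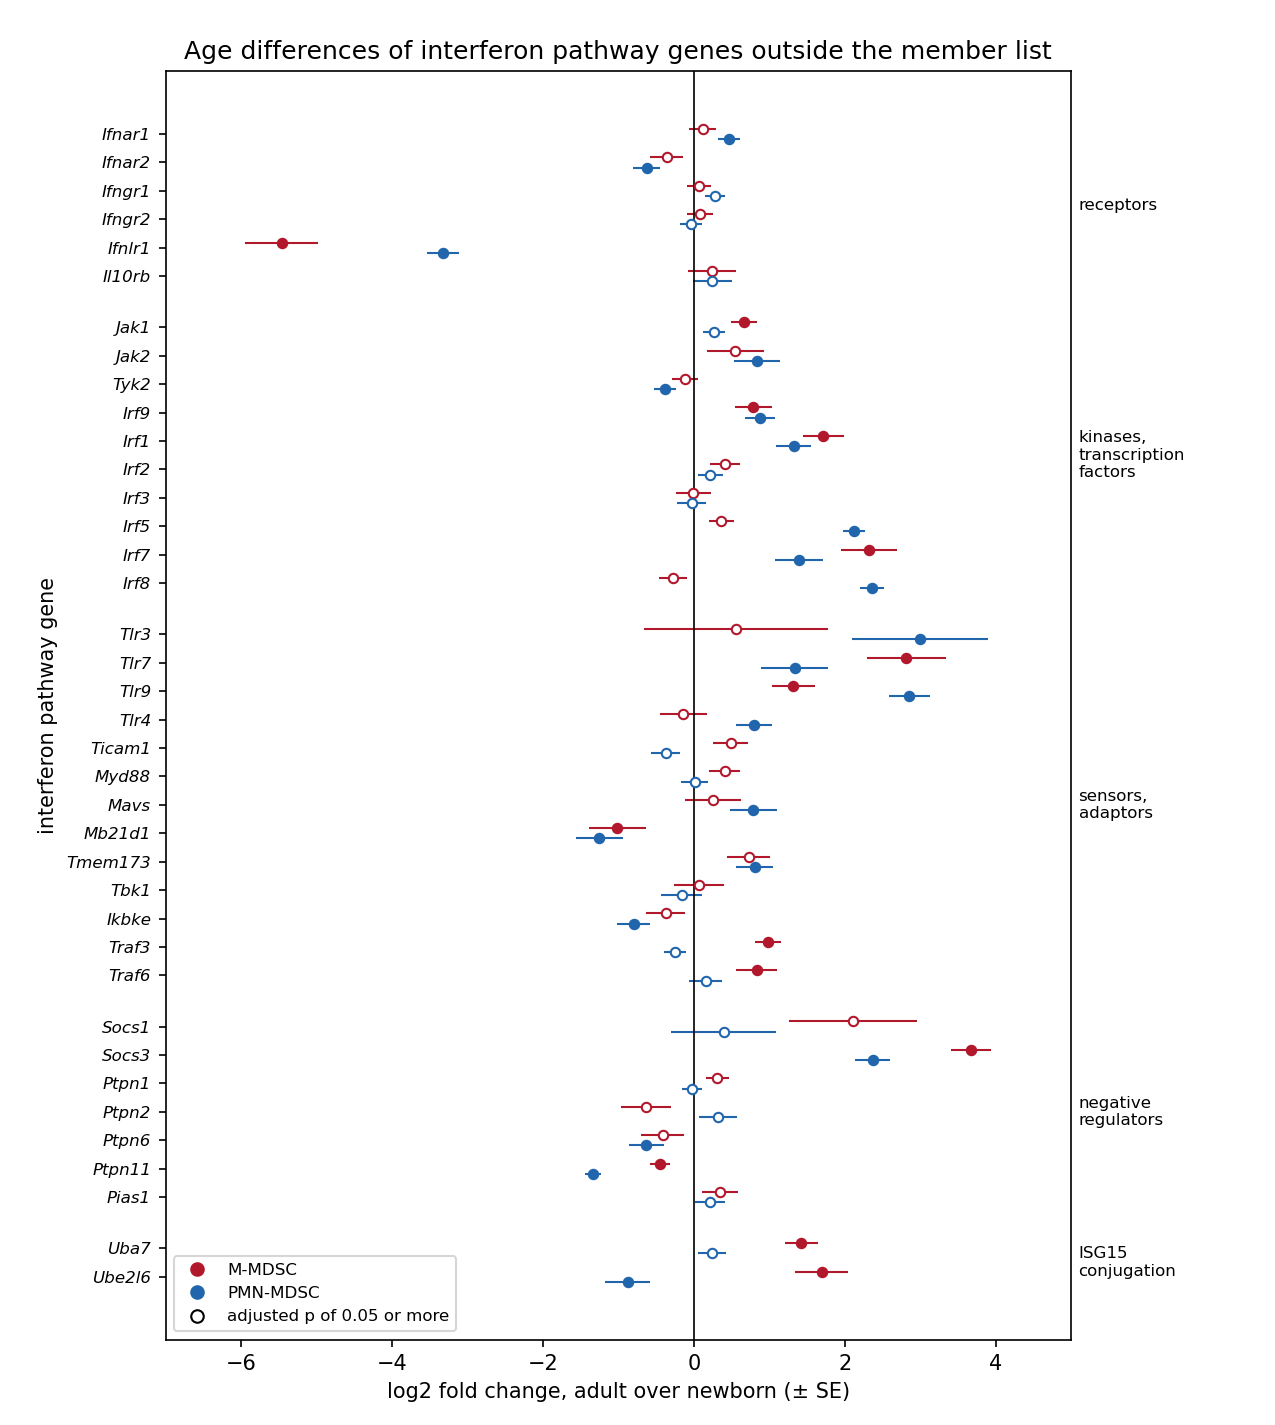
Log2 fold change, adult over newborn, of the 38 tested interferon pathway genes outside the member list, by role, in M-MDSC and PMN-MDSC, with bars of 1 SE; open symbols have an adjusted p of 0.05 or more. Ifnlr1 lies farthest left at -5.46 in M-MDSC and Socs3 farthest right at 3.67 in M-MDSC.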

How the data were processed

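RNA was measured in 19 libraries of 50 bp single-end reads from total RNA, per the labels' protocols. What the authors deposited is a table of estimated counts per gene with no normalization. RSEM 1.2.3, mm10 and DESeq2 (whose role is not stated) are named in the submitters' processing notes. Aligner, annotation and use of strand were not given in the sources used here, so reads of a gene and an antisense neighbour cannot be told apart. The deposited counts were whole, and rounding changed no value.

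A single model of all 19 libraries, with a coefficient per group and another for batch, was fitted in edgeR 4.0.16 (R 4.3.3) to TMM-scaled counts of genes that passed edgeR's filter, with 14 residual degrees of freedom. The quasi-likelihood test gave p-values, which were adjusted by Benjamini and Hochberg's method over all 12943 genes of a comparison; an adjusted p under 0.05 was called. Each SE is the fold change divided by the root of F. The script was tested on simulated data. CPM use the TMM-scaled library size; exon lengths and coordinates are from GENCODE M21 (GRCm38), promoter windows from RefSeq (GRCm38.p6). A count of 0 was read as allowing 3 counts. Group levels are means with SD.

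The members and all lists were chosen with earlier results of these data known. Library values are given for the 2 most abundant members of each role and the 2 largest and 2 smallest age differences in each cell type (15 members); fold changes for up to 4 more per role by smallest adjusted p; and for pathway genes up to 4 called per role. A gene of the pathway list is not reported here. Other genes named, among them Ifnb1, Rsad2, Bst2, Isg20, Eif2ak2, Dtx3l, Parp9 and Stat2, were chosen after their values were seen. Whether batch 1 libraries that share a replicate number were paired could not be settled. Alternatives covered scaling, filter, test (DESeq2 1.42.0, limma 3.58.1), batch, matched libraries, the replicate number and each library left out.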

Additional observations from a re-analysis of the deposited data

Results flagged for a closer look

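In 5 of the 45 groups of 4 to 10 libraries examined for the 15 members with library values, 1 library stood apart from the rest of its group by Dixon's ratio of gap to range; chance gives about 1 in 20 groups. Isg15 was at 3.03 CPM in newborn PMN-MDSC replicate 3, the highest of that group. Oas3 was at 173 CPM in newborn PMN-MDSC replicate 39, the lowest of its group. In newborn M-MDSC replicate 77, Trim25 was high at 299 CPM and Cmpk2 low at 23.9 CPM. Ifi44 was at 0.463 CPM in newborn M-MDSC replicate 3, from a single count, and at 0 in the other libraries of that group.

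The age effect differed between the cell types, by the edgeR test of the difference itself (M-MDSC age effect minus PMN-MDSC age effect, log2), for 7 members. Over all genes, 18.1% were called in this comparison, so the members do not stand out by their count. It was 1 within batch 1 and 2 without the batch 1 partners. The differences below are those of the fit to all libraries. The difference was 1.02 for Ddx58, 2.42 for Oas2 and 2.20 for Oas3, which had the larger adult excess in M-MDSC. It was -1.10 for Zbp1, -1.56 for Ifi203, -3.23 for Oasl1 and -1.60 for Slfn8, which had the larger adult excess in PMN-MDSC. Among the other pathway genes it was 1.22 for Traf3, 1.30 for Socs3, 0.88 for Ptpn11, 1.18 for Uba7 and 2.57 for Ube2l6. It was negative for Ifnlr1 (-2.14), Irf5 (-1.76), Irf8 (-2.64) and Tlr9 (-1.54).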

How the results depend on the processing

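Counts of called members other than those below stayed within 1.5 times their value under every alternative run. In the M-MDSC age comparison (41) the count was 15 within batch 2 and 33 to 41 with 1 library left out. In the PMN-MDSC age comparison (38) it was 25 with the matched libraries as a block in limma-voom (consensus correlation 0.812) and 34 to 39 with 1 library left out. For the difference of the age effects (7) it was 1 within batch 1, 2 without the batch 1 partners and 3 to 8 with 1 library left out. Between adult cell types (10) it was 4 with limma quality weights, 4 within batch 1, 3 without the partners and 6 to 13 with 1 library left out; between newborn cell types (23) it was 15 without the partners and 20 to 24 with 1 library left out. Fewer libraries enter the single-batch fits and those without partners. Among called values, signs turned within batch 2, with its 1 adult M-MDSC library, for the age effects in M-MDSC of Ifi204 (-0.16), Herc6 (-0.26), Trim25 (-0.0432), Samd9l (-0.27) and Jak1 (-0.0512) and for Stat2 between adult cell types (-0.16). Among members not called, they turned there for 10 in the difference of the age effects, 7 between adult cell types and 3 between newborn ones. Cmpk2 in PMN-MDSC turned to 0.0499 with DESeq2 size factors, 0.0497 with DESeq2's own test, 0.11 with upper-quartile scaling and, among fits with 1 library left out (-0.28 without replicate 32 at the lowest), 0.0356 without adult PMN-MDSC replicate 34. The cause of these changes was not tested.

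Replicate numbers are shared between groups in batch 1 only, and deviations of same-numbered libraries correlated at -0.05 to 0.18. The highest values were between adult PMN-MDSC and adult M-MDSC, at 0.176 for replicate 1 and 0.182 for replicate 3. Libraries with different numbers reached 0.075 at most. With so few libraries per group, these correlations cannot decide whether libraries were paired. With the replicate number as a block in batch 1, 39, 30 and 3 members were called in M-MDSC, PMN-MDSC and the difference, and 7 and 16 between the cell types of adults and newborns. Members near the floor of batch 1, such as Ifi44, Isg15 and Mx2 in newborns, are limited by depth.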
